A study of Homo sapiens with 18 samples.

Results

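Receptor tyrosine kinases carry signals from growth factors and matrix proteins across the plasma membrane. In many of them a ligand brings receptor chains together, their kinase domains phosphorylate each other, and adaptors dock on the phosphorylated tyrosines. The 10 receptors described here lie outside the MET, ERBB, FGF and Eph families and were chosen by gene symbol, 10 of the 19901 genes in the count table. KIT and CSF1R bind stem cell factor and the ligands CSF1 and IL-34. AXL, TYRO3 and MERTK (the TAM receptors) bind GAS6, and TYRO3 and MERTK also bind protein S. DDR1 and DDR2 bind collagen, IGF1R and INSR bind the insulin-like growth factors and insulin, and ROR1 is a receptor-like kinase that binds WNT5A. In squamous carcinomas AXL is known for its association with migration and drug resistance, DDR1 as the collagen receptor of epithelial cells, and KIT mainly from other cells, such as mast cells and melanocytes.

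mRNA was sequenced from 3 head and neck squamous cell carcinoma (HNSCC) lines, Detroit 562, FaDu and SCC-9, to find which genes respond to hepatocyte growth factor (HGF), the ligand of the receptor tyrosine kinase MET. Each line gave 3 control libraries, from cells left untreated, and 3 libraries from cells given 50 ng/mL HGF, 18 libraries in 6 groups. Treatment lasted 16 h by the sample records and the methods of the study, whereas the series record gives 48 h. SCC-9 cells were grown in DMEM F12 with hydrocortisone and cells of the other lines in MEM-α, in the control and the HGF group alike, so that line and medium cannot be told apart between SCC-9 and the others. Each line is a single established line without an engineered change. Detroit 562 is described as carrying an amplified MET gene. Total counts on genes were between 35304770 and 44003970 per library. Nothing states that the replicates came from independently kept cultures beyond the experiment having been repeated, so p-values measure the spread between these libraries, which may be technical.

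The labelled cell type was checked against its markers. The 6 squamous epithelial markers KRT5, KRT14, KRT6A, TP63, EPCAM and CDH1 were present in all lines, with summed counts of 62145 to 349641 per library, except that KRT14 stood at 34.1 to 57.3 normalized counts in Detroit 562. Of 6 mast cell markers, CPA3, FCER1A, MS4A2 and TPSB2 had at most 3 counts in every library, and the summed list held 3 to 24 counts. Of 6 melanocyte markers TYR, MLANA and DCT had at most 3 counts in every library, and the macrophage marker PTPRC likewise. Other markers of these lists were present, and the summed melanocyte list held 261 to 1193 counts per library. MITF had 812 to 998 raw counts in Detroit 562 control libraries, and TYRP1 had 327 to 534 in FaDu control libraries. The summed macrophage list held 844 to 2788 counts, with CD68 at 707 to 2441, and 6 fibroblast markers summed to 141 to 4182.

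Promoter sequence is shown for the 3 receptors on which the results below turn, KIT and INSR, whose mRNA fell in HGF-treated Detroit 562, and AXL, whose mRNA rose. DDR1, which also fell, has 8 annotated starts in the RefSeq promoter table and none was printed. AXL has 2, of which the more upstream was used, and KIT and INSR have 1 each. The stretches lie upstream of the RefSeq start on GRCh38.p14, outside annotated exons, and run 5′ to 3′ on the gene's strand. For KIT this is chr4:54657707-54657888 on the plus strand, for INSR chr19:7294415-7294664 on the minus strand, and for AXL chr19:41218973-41219202 on the plus strand. Capitals mark the GC box, GGGCGG, searched on both strands.
KIT: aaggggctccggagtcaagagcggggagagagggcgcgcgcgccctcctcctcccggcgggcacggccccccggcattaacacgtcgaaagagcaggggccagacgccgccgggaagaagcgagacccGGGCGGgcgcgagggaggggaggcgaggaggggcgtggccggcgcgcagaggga
INSR: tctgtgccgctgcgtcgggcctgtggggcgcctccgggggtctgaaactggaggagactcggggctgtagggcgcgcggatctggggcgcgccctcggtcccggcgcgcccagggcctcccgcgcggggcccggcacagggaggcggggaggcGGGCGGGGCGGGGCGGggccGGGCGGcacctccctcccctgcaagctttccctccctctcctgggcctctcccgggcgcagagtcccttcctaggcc
AXL: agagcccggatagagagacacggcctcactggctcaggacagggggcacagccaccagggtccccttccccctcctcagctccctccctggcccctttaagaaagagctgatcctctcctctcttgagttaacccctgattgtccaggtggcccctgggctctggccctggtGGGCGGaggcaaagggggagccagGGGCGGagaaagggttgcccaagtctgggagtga

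The GC box occurred 1 time in the 182 bases of KIT, 4 times in the 250 bases of INSR, where 3 of the matches overlap each other, and 2 times in the 230 bases of AXL. Of all 35116 RefSeq promoter windows trimmed to the same length, 31.6%, 42.6% and 40.0% held it. The AP-1 motif TGANTCA had no match in any of the 3 stretches and was found in 4.75%, 6.57% and 6.20% of windows of those lengths. The E-box CANNTG matched 1 time in AXL and not in KIT or INSR, against 59.3% of windows of the AXL length. G and C made up 75.8% of the KIT, 78.4% of the INSR and 63.9% of the AXL stretch. These matches are letters in a window and not measured sites.

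In untreated cells the most abundant receptors per length were DDR1 and AXL in all 3 lines. Levels between genes are given as CPM (counts scaled to a common library size) per kilobase of annotated exon, since long genes collect more reads. In Detroit 562 DDR1 stood at 46.3 ± 10.0 CPM per kilobase and AXL at 21.2 ± 4.1 (SD, n = 3). IGF1R followed at 7.40 ± 0.24, TYRO3 at 4.33 ± 0.21 and KIT at 2.72 ± 0.38, each separated from its neighbours in every library on this scale. With the whole gene extent as the length TYRO3 came 3rd, KIT 4th and IGF1R 5th, so the order of these receptors rests on the length used. ROR1 at 1.63 ± 0.50, MERTK at 1.16 ± 0.11 and INSR at 1.10 ± 0.09 overlapped from one to the next, and CSF1R and DDR2 at 0.0379 ± 0.0402 and 0.0218 ± 0.0026 overlapped at the bottom of the order.

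By exon length FaDu had the same 4 leading receptors, and it had almost no KIT. DDR1 at 23.2 ± 1.8 CPM per kilobase and AXL at 19.2 ± 8.2 overlapped, because AXL reached 28.7 in control replicate 3. IGF1R stood at 6.58 ± 0.55 and TYRO3 at 1.96 ± 0.06. INSR, ROR1, MERTK, DDR2 and CSF1R lay between 0.233 and 0.0703 on this scale, and each overlapped the next. KIT had 1 count in 1 of the 3 control libraries and none in the other two.

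SCC-9 differed in the leading receptor, AXL at 59.9 ± 9.0 CPM per kilobase, above DDR1 at 38.4 ± 2.0 in every library. With the longest annotated transcript as the length, DDR1 came before AXL in SCC-9, so this order rests on the length used. IGF1R stood at 3.49 ± 0.25. TYRO3 at 1.36 ± 0.15 overlapped INSR at 1.25 ± 0.18, and MERTK at 0.372 ± 0.061 overlapped CSF1R at 0.306 ± 0.066. ROR1 at 0.933 ± 0.151, DDR2 at 0.0726 ± 0.0150 and KIT at 0.0317 ± 0.0113 were separated from their neighbours.

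**Figure D1:**
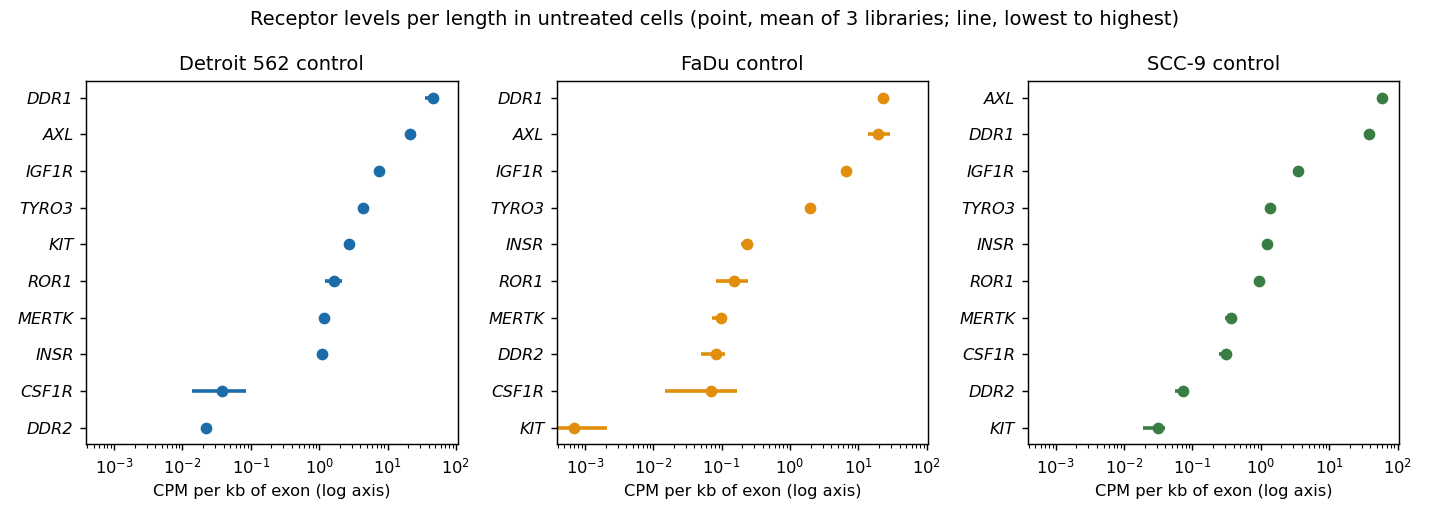
Level of each receptor in untreated cells in CPM per kilobase of exon on a log axis, with 1 panel per line. Points are means of 3 libraries, lines run from the lowest to the highest library, and the line of KIT in FaDu is cut at the left edge because 2 of its libraries hold 0 counts. DDR1 and AXL lead in each panel, and KIT moves from 5th place in Detroit 562 to the last in FaDu and SCC-9.

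KIT (ENSG00000157404.15, chr4:54657918-54740715, plus strand), the receptor of stem cell factor, was expressed at a clear level only in Detroit 562 of the lines measured. Untreated Detroit 562 had 1314, 1351 and 1036 normalized counts, SCC-9 had 18.2, 8.6 and 16.4, and FaDu had 0, 0 and 0.94. The groups do not overlap. The ratio of Detroit 562 to FaDu, 3591 counts against 1, was 3843 with a 95% counting interval of 689 to 151819, and that of SCC-9 to FaDu, 44 counts against 1, was 44.5 with an interval of 7.58 to 1797. These intervals cover counting error only. Detroit 562 exceeded SCC-9 by 85.3-fold, a log2 difference of 6.41 ± 0.35 (SE). In bulk RNA fewer cells that express a gene and less RNA per cell cannot be told apart. The mast cell markers CPA3, FCER1A, MS4A2 and TPSB2 were at or near 0 in Detroit 562, and the melanocyte markers TYR, MLANA and DCT too. The other markers of both lists were detected in its control libraries. MITF stood at 884 to 1069 normalized counts, PMEL at 85.3 to 98.0 and TYRP1 at 38.9 to 94.5. TPSAB1 stood at 5.4 to 19.4 and HDC at 2.8 to 6.5.

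HGF lowered KIT in Detroit 562. The HGF libraries had 491, 798 and 325 normalized counts, all below the lowest control library at 1036. The log2 fold change was −1.20 ± 0.25 (SE; 95% interval −1.72 to −0.68, 2.29-fold lower), with an adjusted p of 0.00370 by edgeR's quasi-likelihood test and a fall in 3 of 3 same-numbered pairs. Replicate 3 was the lowest of both groups. In SCC-9 the raw counts were 19, 9 and 16 in control and 3, 5 and 7 in HGF libraries, which do not overlap, and the log2 fold change of −1.55 ± 0.60 had an adjusted p of 1. At such low counts the fitted value depends on the prior count of the fit. In FaDu each HGF library had at most 1 count, and since 3 counts are taken as the floor in both groups no fold is given. The fall in Detroit 562 was not found to differ from the change in SCC-9 (difference 0.35 log2, 95% interval −0.99 to 1.69, adjusted p = 0.830 by edgeR).

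In Detroit 562 the summed melanocyte list was at 982 to 1193 counts in control libraries and 690 to 895 in HGF libraries. Of its 3 tested members 2, PMEL and TYRP1, were called lower, against 11.7% of all genes. The summed mast cell list was at 11 to 24 counts in control and 3 to 14 in HGF libraries, which overlap, and its 1 tested member, TPSAB1, was not called (−0.93, adjusted p = 0.301, edgeR). Their part in the fall of KIT was not tested.

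CSF1R (ENSG00000182578.13, chr5:150053291-150113372, minus strand), the receptor of macrophage colony-stimulating factor, was low in all lines and varied more between libraries than between groups in 2 of them. Detroit 562 control libraries had 2.8, 17.4 and 3.2 normalized counts and HGF libraries 2.0, 5.7 and 97.6. The 97.6, from 80 raw counts, came from HGF replicate 3 alone, and the groups overlap. On the log2 scale it changed by 2.13 ± 1.06, with an adjusted p of 0.151. Without HGF replicate 3 the value turned to −1.01 (adjusted p = 0.578), and without HGF replicate 1 or 2 it was called at 2.72 and 2.64. It was called in the fit with a replicate block (1.85, adjusted p = 0.0752) and by DESeq2 (1.61, adjusted p = 0.0962, with its prior and 2.14, adjusted p = 0.0936, without it), and only 1 of the 3 pairs was higher. FaDu showed a like pattern in control cells, at 5.7, 3.0 and 34.8 normalized counts, where replicate 3 was high, against 3.7, 6.0 and 6.8 in HGF libraries. SCC-9 had 61.4, 50.5 and 77.7 in control and 42.2, 56.8 and 39.4 in HGF libraries. Untreated SCC-9 exceeded untreated Detroit 562 by 8.13-fold and untreated FaDu by 4.27-fold, and the call against FaDu was lost without FaDu control replicate 1 or 2 (adjusted p = 0.133 and 0.138). Of 6 macrophage markers PTPRC and CD163 had at most 3 counts in every library, LYZ exceeded that only in FaDu control libraries, and CD14 only in FaDu and SCC-9. In Detroit 562 the summed list was at 844 to 1514 counts in control and 1358 to 1859 in HGF libraries, and CD68 was called higher (0.66, adjusted p = 0.0410, edgeR). The sum in control cells was 956 to 1381 in FaDu and 2525 to 2744 in SCC-9, and its part in the CSF1R values was not tested.

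Across the 10 receptors, 4 were called in HGF-treated Detroit 562, 3 lower (KIT, INSR and DDR1) and 1 higher (AXL), where a call needed an adjusted p under 0.1 and a change of 0.4 or more on the log2 scale. Of all 15475 genes tested 17.9% were called there, 6.16% higher and 11.7% lower. The median log2 fold change of the 10 was 0.16, against −0.01 over all genes. The groups did not overlap for 6 of the 10, against 38.2% of all genes. With the replicate block 6 of the 10 were called, now with CSF1R and ROR1, against 21.5% of all genes.

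INSR (ENSG00000171105.13, chr19:7112255-7294034, minus strand), the insulin receptor, fell in Detroit 562. Detroit 562 control libraries had 485, 515 and 438 normalized counts and HGF libraries 202, 215 and 212. All 3 HGF libraries lay close together and below every control library. The log2 fold change was −1.19 ± 0.12 (95% interval −1.45 to −0.93, 2.28-fold lower, adjusted p = 0.000116, edgeR; 3 of 3 pairs lower). FaDu had 108.5, 109.8 and 84.7 in control and 92.0, 90.7 and 104.7 in HGF libraries, and SCC-9 had 481, 518 and 629 in control and 494, 532 and 564 in HGF libraries. In both lines the groups overlap, with log2 fold changes of −0.07 ± 0.14 and −0.03 ± 0.12.

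INSR was the only one of the 10 whose HGF response differed between lines in the edgeR fit of all libraries without the replicate block. The response in Detroit 562 was lower than in FaDu by 1.12 ± 0.18 log2 (95% interval −1.51 to −0.73, adjusted p = 0.0297, edgeR), in a comparison in which 0.239% of all genes were called. It was lower than in SCC-9 by 1.16 ± 0.17 (95% interval −1.52 to −0.80, adjusted p = 0.0242), where 0.924% of genes were called. The difference from FaDu was no longer called without Detroit 562 control replicate 1 or 2 (adjusted p = 0.113 and 0.102), at log2 values of −1.11 and −1.06. Before treatment INSR was alike in Detroit 562 and SCC-9 to within the spread (log2 difference −0.18, 95% interval −0.43 to 0.07), and FaDu was 4.75-fold below Detroit 562 and 5.37-fold below SCC-9.

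IGF1R (ENSG00000140443.13, chr15:98648971-98964530, plus strand), the receptor of insulin-like growth factors, moved less. Detroit 562 had 4259, 4159 and 3994 normalized counts in control and 3384, 3690.02 and 3582 in HGF libraries. The groups do not overlap and 3 of 3 pairs were lower, but the log2 fold change of −0.22 ± 0.10 was smaller than the minimum for a call (adjusted p = 0.104, and 0.00575 with the block). FaDu had 3373, 3988 and 3665 against 3256, 4509 and 4063, and SCC-9 had 1796, 2002 and 2059 against 1798, 1901 and 1747. With the block the response in Detroit 562 was lower than in FaDu by 0.31 log2 (adjusted p = 0.0234), which did not pass without it (adjusted p = 0.387). Untreated SCC-9 was lower than Detroit 562 by 2.12-fold and than FaDu by 1.88-fold.

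DDR1 (ENSG00000204580.13, chr6:30876421-30900156, plus strand), the epithelial collagen receptor, fell in Detroit 562. Its control libraries had 20230.4, 17582 and 13005 normalized counts and its HGF libraries 11377, 9929.6 and 7759. Replicate 3 was the lowest of both groups, and the highest HGF library stayed below the lowest control library. The log2 fold change was −0.81 ± 0.14 (95% interval −1.10 to −0.51, 1.75-fold lower, adjusted p = 0.00146, edgeR; 3 of 3 pairs lower). FaDu had 8569, 9076 and 7781 in control and 6987, 7764 and 7119.6 in HGF libraries, and SCC-9 had 13222, 14328 and 14625 in control and 11365, 12711 and 12133 in HGF libraries. In both lines the groups do not overlap and 3 of 3 pairs were lower, at −0.22 ± 0.14 and −0.22 ± 0.14, below the minimum fold change. The adjusted p was 0.661 in FaDu and 1 in SCC-9, and 0.00484 and 0.0103 with the block.

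The larger fall of DDR1 in Detroit 562 passed the test of the difference only in some fits. Against FaDu it was 0.59 log2 larger (adjusted p = 0.281 without the block and 9.8e-05 with it), and against SCC-9 likewise 0.59 larger (adjusted p = 0.187 and 4.54e-05). DESeq2 called the difference from SCC-9 (adjusted p = 0.0965 with its fold change prior and 0.0940 without it). Without Detroit 562 control replicate 3 both differences were called by edgeR, at −0.75 and −0.74. Among untreated lines FaDu was 2.00-fold below Detroit 562 and 1.66-fold below SCC-9, and Detroit 562 and SCC-9 overlapped (log2 difference 0.27, 95% interval −0.02 to 0.56, and 0.43, called, without Detroit 562 control replicate 3). The squamous marker KRT5 (−0.90) and the adhesion gene CDH1 (−0.49) were also called lower in HGF-treated Detroit 562. These were 2 of 6 squamous markers, against 11.7% of all genes called lower. KRT14 (−0.20), TP63 (−0.37), KRT6A (0.006) and EPCAM (0.21) were not called. TP63 was lower and EPCAM higher in 3 of 3 pairs, both without overlap of the groups. Their adjusted p of 0.0482 and 0.0968 (edgeR) passed, but their changes were under the minimum fold change. The relation of these markers to DDR1 was not tested.

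DDR2 (ENSG00000162733.16, chr1:162631373-162787400, plus strand), the collagen receptor of connective tissue, was low. Detroit 562 had 8.5, 9.8 and 10.8 normalized counts in control and 11.9, 5.7 and 15.9 in HGF libraries. FaDu had 21.9, 38.3 and 49.9 in control and 34.4, 48.4 and 83.4 in HGF libraries. The groups overlap but each FaDu pair was higher, at 0.59 ± 0.33 log2 (adjusted p = 0.641, and 0.0786, called, with the block). SCC-9 stood at 24.8 to 37.4 in control and 32.2 to 40.4 in HGF libraries. Untreated Detroit 562 was 3.76-fold below FaDu and 3.31-fold below SCC-9. Of 6 fibroblast markers LUM alone had at most 3 counts in every library of all lines. In control cells the summed list was at 1105 to 2303 counts in Detroit 562, 171 to 286 in FaDu and 3042 to 4182 in SCC-9. In SCC-9 each of the other 5 markers exceeded 3 counts in at least 1 library. The part of this list in the DDR2 values was not tested.

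**Figure D2:**
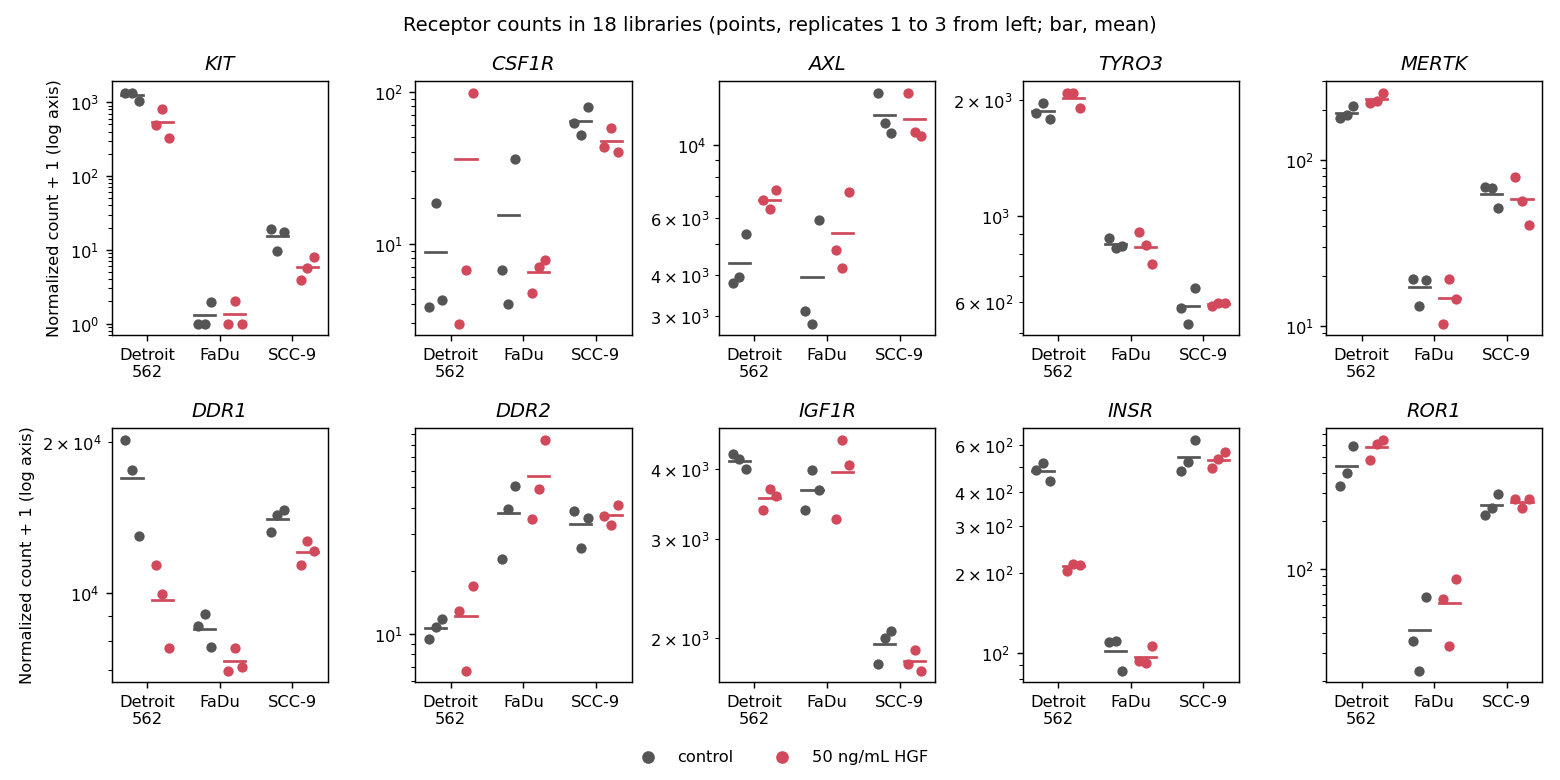
Normalized count plus 1 of each receptor in every library, on a log axis in each panel, control in grey and HGF in red, with replicates 1 to 3 from left to right and a bar at the mean. KIT, DDR1 and INSR fall in Detroit 562 without overlap, KIT lies at 0 to 1 counts in FaDu, and 1 CSF1R library of Detroit 562 stands at 97.6.

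AXL (ENSG00000167601.11, chr19:41219203-41261766, plus strand), a TAM receptor, rose in Detroit 562. The control libraries had 3791, 3959.7 and 5337 normalized counts and the HGF libraries 6793, 6352 and 7271. Replicate 3 was the highest of both groups, and the groups do not overlap. The log2 fold change was 0.64 ± 0.24 (95% interval 0.12 to 1.16, 1.56-fold higher, adjusted p = 0.0636, edgeR; 3 of 3 pairs higher) and 0.66 with the block (adjusted p = 4.21e-06). Without the block the call was lost without control replicate 1 or 2 or without HGF replicate 1 or 3, with adjusted p of 0.105 to 0.215 and log2 fold changes of 0.55 to 0.64.

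In FaDu AXL had 3108, 2846 and 5905 normalized counts in control and 4773, 4198 and 7167 in HGF libraries. Control replicate 3 lay above 2 of the HGF libraries, so the groups overlap, while each same-numbered pair was higher. On the log2 scale the difference was 0.44 ± 0.24 (adjusted p = 0.641), or 0.48 with the block, where it was called (adjusted p = 0.000595). In SCC-9, where AXL was most abundant, the control libraries had 14419.5, 11713 and 10884 and the HGF libraries 14462, 10951 and 10629. The groups overlap and the log2 fold change was −0.04 ± 0.24 (95% interval −0.55 to 0.47).

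The AXL responses of the lines differed only with the block. Detroit 562 exceeded SCC-9 by 0.68 log2 (adjusted p = 0.353, and 0.000331 with the block), and FaDu exceeded SCC-9 by 0.48 (adjusted p = 1.00, and 0.0246 with the block). Detroit 562 and FaDu differed by 0.20 (95% interval −0.53 to 0.93). Untreated SCC-9 was 2.83-fold above Detroit 562 and 3.12-fold above FaDu. Untreated Detroit 562 and FaDu overlapped, at a log2 difference of 0.14, which became 0.55 (adjusted p = 0.0264) without FaDu control replicate 3.

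**Figure D3:**
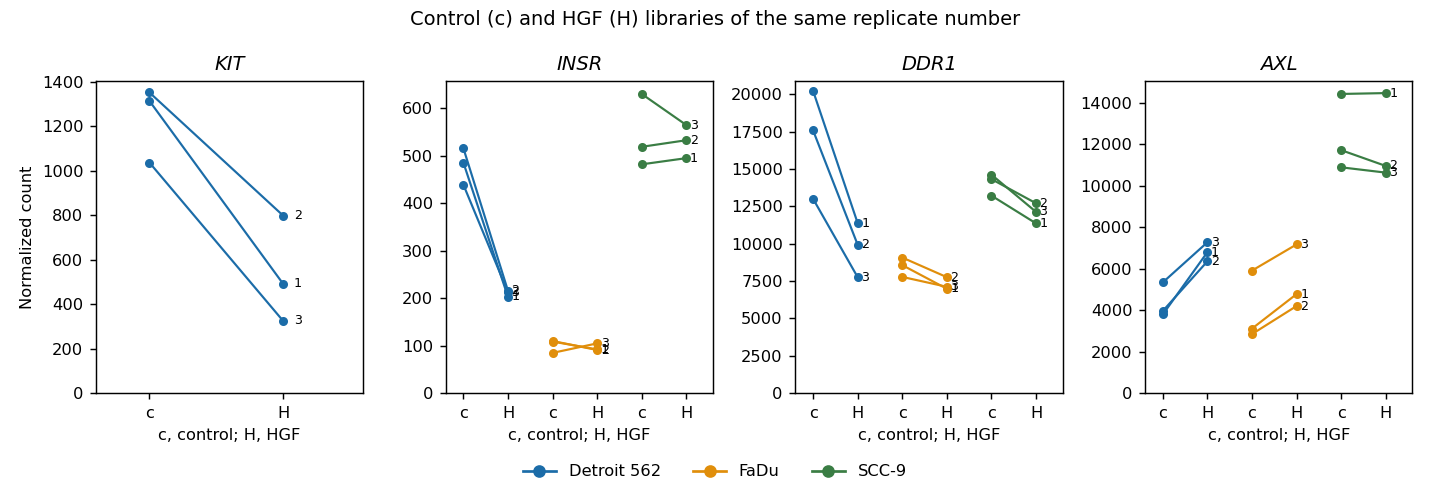
Normalized counts of KIT, INSR, DDR1 and AXL from a linear axis that starts at 0, with lines joining the control (c) and HGF (H) libraries of the same replicate number, written beside each line. KIT is drawn for Detroit 562 alone. INSR falls to 202 to 215 in each Detroit 562 pair, and AXL is higher in the HGF library of each Detroit 562 and FaDu pair.

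TYRO3 (ENSG00000092445.11, chr15:41557675-41583586, plus strand) and MERTK (ENSG00000153208.16, chr2:111898479-112029561, plus strand), the other TAM receptors, were called in no HGF comparison. TYRO3 in Detroit 562 had 1854, 1968 and 1785 normalized counts in control and 2089, 2081 and 1909 in HGF libraries, a log2 fold change of 0.12 ± 0.08. Each pair was higher but the groups overlap. In FaDu and SCC-9 its log2 fold changes were −0.02 ± 0.08 and 0.02 ± 0.08. MERTK in Detroit 562 had 179, 187 and 213 in control and 219, 225 and 255 in HGF libraries, which do not overlap, at 0.27 ± 0.20 (adjusted p = 0.347, and 0.0981 with the block, below the minimum fold change). MERTK stood at 9.3 to 18.1 in FaDu and 39.4 to 77.6 in SCC-9.

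The TAM receptors differed in their order across untreated lines. TYRO3 was 2.21-fold higher in Detroit 562 than in FaDu and 1.45-fold higher in FaDu than in SCC-9, and its control groups do not overlap. MERTK was 11.9-fold higher in Detroit 562 than in FaDu and 3.12-fold higher than in SCC-9. AXL alone of the 3 was highest in SCC-9.

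ROR1 (ENSG00000185483.11, chr1:63774022-64181498, plus strand), the WNT5A-binding receptor, had 331, 397 and 591 normalized counts in Detroit 562 control and 483, 608 and 645 in HGF libraries. Replicate 3 was again the highest of both groups, and control replicate 3 lay above HGF replicate 1, so the groups overlap. The difference was 0.40 ± 0.28 log2 (adjusted p = 0.321), or 0.42 with the block, where it was called (adjusted p = 0.00435; 3 of 3 pairs higher). FaDu had 34.3, 22.2 and 65.9 in control and 64.1, 32.3 and 85.3 in HGF libraries, at 0.57 ± 0.37 (adjusted p = 0.675, and 0.0771, called, with the block). SCC-9 had 217, 241 and 296 in control and 272, 239.6 and 276 in HGF libraries, at 0.06 ± 0.29. Untreated Detroit 562 was 10.7-fold above FaDu and 1.75-fold above SCC-9, and the last was not called without Detroit 562 control replicate 3 (0.53 log2, adjusted p = 0.116).

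In FaDu 0 of the 10 receptors were called by edgeR without the block, against 0.0258% of all genes. None had an unadjusted p below 0.05, and DESeq2 called 0 with and without its prior. With the block 3 were called, AXL, DDR2 and ROR1, all higher, against 5.6% of all genes (2% higher). Only DDR1 had groups that do not overlap, against 9.41% of all genes. The median log2 fold change of the 10 was −0.01, against −0.004 over all genes.

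In SCC-9 0 of the 10 were called by edgeR without the block, as were 0% of all genes. KIT had an unadjusted p below 0.05, and DESeq2 called 0 with and without its prior. With the block 0 were called, against 1.97% of all genes. The groups of KIT and DDR1 do not overlap, against 17.4% of all genes.

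**Figure D4:**
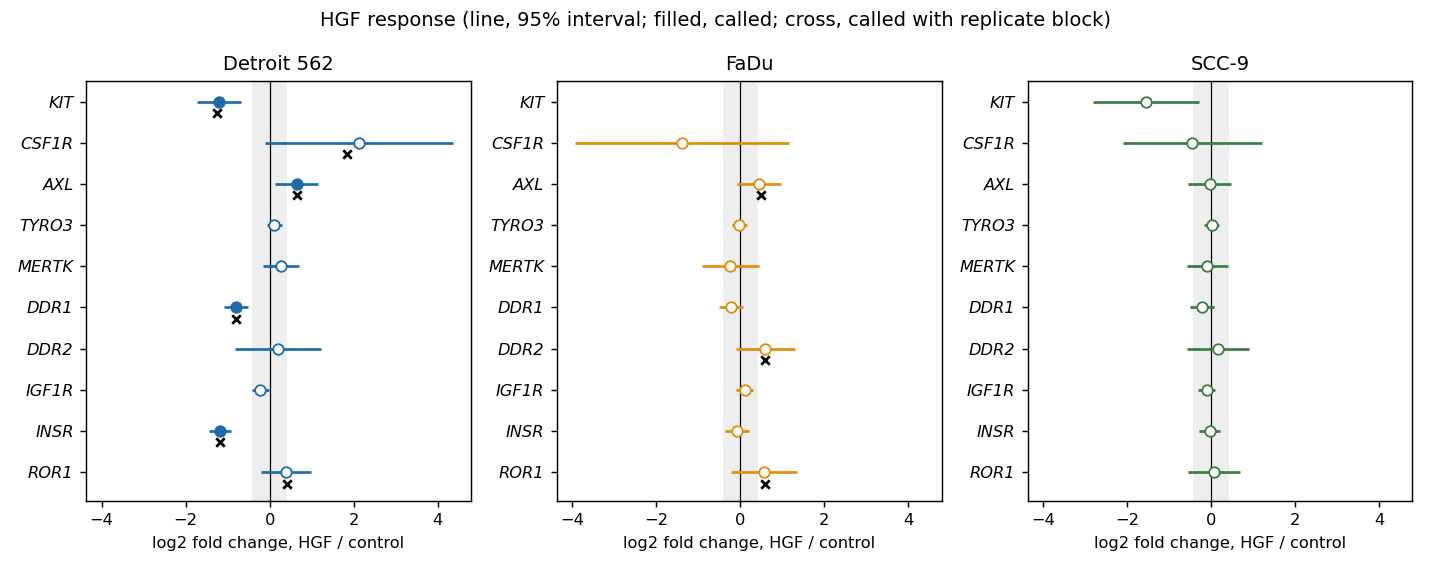
HGF response of each receptor as log2 fold change of HGF over control in the 3 lines. Lines are 95% intervals, filled points were called without the replicate block, crosses mark calls with it, the grey band spans the minimum fold change of 0.4, and KIT in FaDu is left out for lack of counts. In Detroit 562 KIT, DDR1 and INSR lie left of the band and AXL lies to its right.

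The counts of differing responses were small without the block. Between Detroit 562 and FaDu, and between Detroit 562 and SCC-9, 1 of the 10 was called, INSR in both comparisons, which share the Detroit 562 libraries. Of all genes 0.239% and 0.924% were called there. Between FaDu and SCC-9 0 were called by edgeR, against 0% of all genes, none had an unadjusted p below 0.05, and DESeq2 called 0. With the block 3, 3 and 1 of the 10 were called, against 19.1%, 26.9% and 1.32% of all genes.

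Between untreated lines most receptors differed, as did most genes. Detroit 562 differed from FaDu in 7 of the 10, 6 of them higher in Detroit 562, against 61% of all genes (31.2% higher and 29.8% lower). It differed from SCC-9 in 8 of the 10, 5 of them higher, against 65.4% (31.4% higher and 33.9% lower). FaDu differed from SCC-9 in 9 of the 10, 7 of them lower in FaDu, against 64.2% (30.7% higher and 33.5% lower). The control libraries did not overlap for 8 of the 10 members between Detroit 562 and FaDu, against 74% of all genes, for 8 between Detroit 562 and SCC-9, against 80.7%, and for 9 between FaDu and SCC-9, against 78.6%. These comparisons share control libraries. The 3 members not called between Detroit 562 and FaDu were AXL, CSF1R and IGF1R.

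Ligands of the receptors were measured in the same libraries. Of 9 listed, 6 had enough reads, and HGF lowered 3 of them in Detroit 562 (median −0.52, against −0.01 over all genes, of which 11.7% were called lower). WNT5A, the ROR1 ligand, had 3396, 3388 and 1506 normalized counts in control and 971, 1153 and 540.4 in HGF libraries, a log2 fold change of −1.64 ± 0.35 (adjusted p = 0.00473, edgeR). All HGF libraries lay below all control libraries. CSF1 fell by 0.51 (adjusted p = 0.0474, edgeR), and PROS1, which encodes protein S, fell by 0.54 (adjusted p = 0.0928). The calls of CSF1 and PROS1 were lost without Detroit 562 control replicate 1 or 2 or HGF replicate 3 (adjusted p of 0.134 to 0.320), and that of PROS1 also without Detroit 562 HGF replicate 1 and without several libraries of the other lines. In the fit of the 6 Detroit 562 libraries alone both calls were lost (adjusted p = 0.129 for CSF1 and 0.165 for PROS1).

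The other ligands were not called by edgeR in all libraries without the block. KITLG, which encodes stem cell factor, stood at 4256 to 5252 normalized counts in Detroit 562 control and 3768 to 4611 in HGF libraries (−0.14 ± 0.16). It ran at 1337 to 1716 in FaDu and at 173 to 256 in SCC-9 control cells, so that KIT and its ligand were both highest in Detroit 562. GAS6, the ligand of all TAM receptors, stood at 11811 to 13154 in SCC-9 control cells, against 357 to 531 in Detroit 562 and 268 to 378 in FaDu. AXL, too, was highest in SCC-9. With HGF in Detroit 562 GAS6 changed by 0.43 log2 (adjusted p = 0.108). It was called with the block (adjusted p = 0.00813), by DESeq2 (0.0794 with and 0.0805 without its prior) and in 5 of the edgeR fits with 1 library left out (0.0515 to 0.0995). IGF2 ran at 5.7 to 53.3 normalized counts in any library, and IL34, INS and IGF1 were too low to test.

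Genes of the insulin-like growth factor system were followed in Detroit 562 beside INSR. Of 11 IGF-binding proteins and their regulators, 2 were called lower and 2 higher (median −0.06), against 11.7% of all genes lower and 6.16% higher. IGFBP3 fell from 34044 to 36110 normalized counts in control to 14757 to 21404 in HGF libraries (−0.98 ± 0.26), and IGFBP5 fell by 1.23. IGFBP4 rose by 0.55 and PAPPA, a protease that cleaves IGFBP4, rose by 0.94. Of 14 receptor adaptors and processing enzymes, 13 were tested and 3 were called, all higher: IRS2, the docking protein of both receptors, by 0.41, and the adaptors GRB10 by 0.46 and GRB14 by 0.42, which bind the insulin receptor (median 0.22), against the same 6.16% higher over all genes. The calls of IRS2 and GRB14 were lost with upper-quartile scaling, where their log2 fold change was 0.40, under the minimum. With 1 Detroit 562 library left out, IRS2 and GRB10 lost their calls without control replicate 1 or 2 or HGF replicate 3, IGFBP4 without control replicate 1 or 2 or HGF replicate 1, PAPPA without control replicate 1 or 2, and GRB14 without control replicate 2 or HGF replicate 2. The adjusted p in these fits was 0.0751 to 0.189, and those under 0.1 missed the minimum fold change.

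Genes for shedding, ubiquitination and feedback of receptors gave 3 calls of 13 in Detroit 562, all higher (median 0.16), against 17.9% of all genes called, 6.16% higher. SOCS2, a feedback inhibitor of cytokine and growth hormone signals, had 248, 242 and 259 normalized counts in control and 468, 413 and 576 in HGF libraries, at 0.96 ± 0.16 (adjusted p = 0.00149, edgeR). SOCS3 rose by 0.81 and SH2B3, an adaptor known to restrain KIT signals, by 0.65. The call of SOCS3 was lost without Detroit 562 control replicate 1 or 2 (adjusted p = 0.104 and 0.131). None of ADAM10, ADAM17, CBL, CBLB, CBLC, NEDD4, NEDD4L, SOCS1, SOCS6 and PTPN6 was called without the block.

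Among collagens, the ligands of DDR1 and DDR2, 7 of 9 were tested in Detroit 562 and 3 were called lower, COL1A1 (−0.77), COL1A2 (−1.04) and COL5A1 (−0.66), and 1 higher, COL4A1 (0.50; list median 0.40), against 11.7% and 6.16% of all genes. COL4A2, at 0.3996 (adjusted p = 0.0206, edgeR), missed the minimum fold change and was called higher with the block. COL8A1, not called, had 613, 672 and 961 normalized counts in control and 1258, 1197 and 1241 in HGF libraries, which do not overlap. The call of COL1A2 was lost with DESeq2 (adjusted p = 0.101 and 0.107 with and without the prior), in the fit of the 6 libraries alone (0.175) and without control replicate 1 or 2 (0.241 and 0.131). Those of COL1A2 and COL5A1 were lost without HGF replicate 3 (0.135 and 0.111). COL1A1 and COL1A2 are also on the fibroblast list, whose sum in Detroit 562 was 1105 to 2303 counts for control and 492 to 1115 for HGF libraries, with LUM, DCN, COL3A1 and PDGFRB at most at 3 counts. Of 24 further receptor kinases 18 were tested and 2 were called, both lower, LTK (−0.85) and AATK (−0.98; list median −0.09), against 11.7% of all genes lower. The call of AATK was lost without Detroit 562 control replicate 1 or 2 (adjusted p = 0.122 and 0.126).

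In all, 19 of the 68 tested pathway genes were called in Detroit 562, 9 higher and 10 lower, against 17.9% of all genes (6.16% higher and 11.7% lower). In FaDu and in SCC-9 0 of the 68 were called by edgeR without the block, against 0.0258% and 0% of all genes. The block gave 8 and 2 calls, against 5.6% and 1.97% of all genes. At an unadjusted p below 0.05 stood 14 in FaDu and 3 in SCC-9, and DESeq2 called 3 and 0. For these last counts no share of all genes is given, so they are not read as a result about the lists. With the block 27 were called in Detroit 562, against 21.5%.

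**Figure D5:**
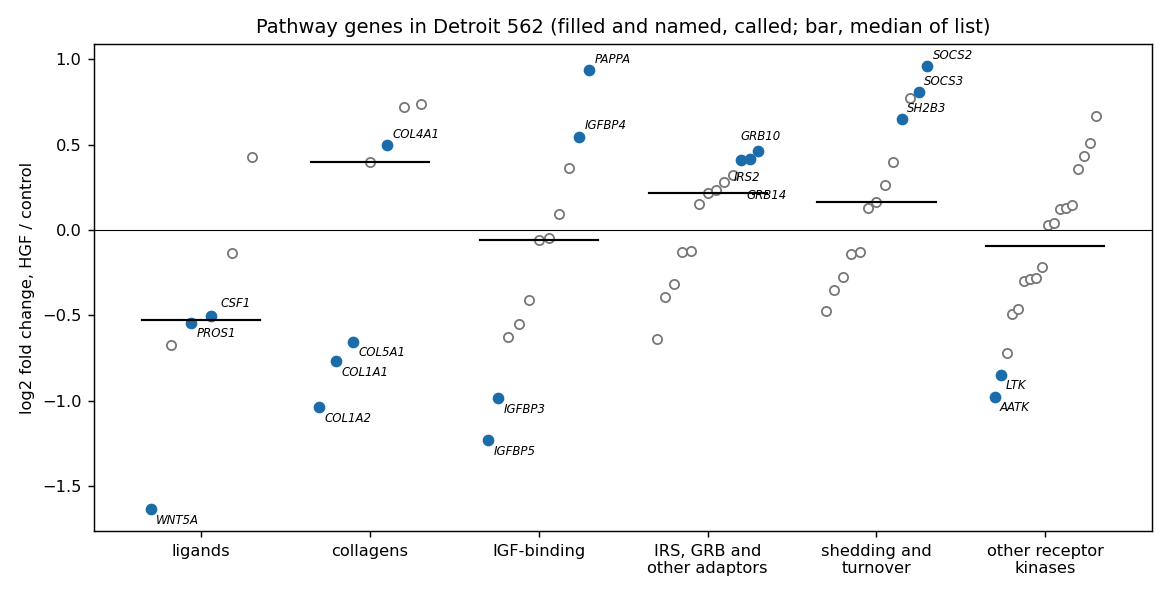
Log2 fold change of HGF over control in Detroit 562 for the tested genes of 6 pathway lists, each gene a point, with genes called without the block filled and named and a bar at each list's median. Ligands centre at −0.52, with WNT5A lowest, and the 3 called genes of the adaptor list and of the turnover list are all higher.

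The genes whose log2 CPM followed each receptor most closely over the 18 libraries are given as a description, since libraries share line, treatment and replicate number. For KIT they were GALNT2 (Pearson r 0.991), MED11 (0.990) and DGCR2 (0.990), a likeness set mainly by the 3 lines. After each line was centred on its own mean they included MTUS1 (0.876) and ADPRH (0.872). For AXL they were BCAR3 (0.967), WDR46 (0.965) and PDLIM7 (0.959), and after centring they included AMIGO2 (0.955) and CTNNAL1 (0.955). For ROR1 they were GLRX2 (0.987), FAM217B (0.987) and TYW5 (0.984), and after centring AC104794.5 (0.953), RRM2 (0.951) and H2AFY (0.940).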

How the data were processed

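The values analysed are raw counts of reads per gene as deposited by the authors, whole numbers without normalization, from 18 stranded mRNA libraries in 6 groups of 3. The submitters' processing notes name bcl2fastq 2.20.0.422, cutadapt 1.16, STAR 2.5.2b, bedtools, DESeq2 1.22.1 and the build GRCh38.p12, with the GENCODE 28 annotation. By the study's methods, bedtools counted the reads that overlapped each gene annotation, with the option for the opposite strand. Each gene has a single start and end in the deposited counts, so introns were taken to be included. No member overlaps another gene of the table on either strand.

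In R 4.3.3, edgeR 4.0.16 (TMM factors, filterByExpr, 15475 of 19901 genes kept, all 10 members among them) fitted 1 mean per line and treatment to all libraries, with 12 residual degrees of freedom. HGF was compared with control in each line, the responses were compared between lines, and the untreated lines were compared in pairs. A call needed a Benjamini-Hochberg adjusted p under 0.1 over all genes tested and a change of 0.4 or more on the log2 scale in either direction, or the adjusted p alone for differences of responses. Normalized counts are TMM-scaled to the mean library. Levels per length used exons of GENCODE 44 on the same build. The floor was 3 counts. Promoters are from RefSeq, and a window was found for all 10 members. Figures were drawn with matplotlib 3.10.9.

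Control and HGF libraries of the same number correlated, over deviations from their group means across genes, at 0.161 to 0.563, and those of different numbers at most at 0.218. The experiment was repeated by the study's methods. The numbers were therefore taken to pair the libraries. A replicate block within each line is printed where it changes a call of a receptor, and for some of the list genes. Alternatives were other scaling factors, filters and call rules, DESeq2 1.42.0, the libraries of 1 line alone and each library left out. The fits were tested on simulated data. All 80 list genes and the markers, like the members, were chosen with earlier results of these data known, as was the naming rule: from each list the genes called in a comparison, at most 8 by size, and every ligand, and for KIT, AXL and ROR1 the 3 genes of highest correlation over all libraries and after centring. Of the genes named by correlation, 2 are not reported here.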

Additional observations from a re-analysis of the deposited data

Results flagged for a closer look

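The difference between lines in the HGF response of INSR was singled out by its own test. INSR fell in Detroit 562 and was not called in the other lines, with a difference in log2 fold change of −1.12 (SE 0.18) between Detroit 562 and FaDu and of −1.16 (SE 0.17) between Detroit 562 and SCC-9. Both comparisons share the Detroit 562 libraries. With the replicate block the adjusted p was 0.000945 and 7.56e-05 (edgeR).

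The HGF response of SOCS2 also differed between Detroit 562 and SCC-9, by 0.93 log2 (95% interval 0.45 to 1.41, adjusted p = 0.0975, edgeR). Without the block it was the single called difference among the 68 pathway genes, in a comparison in which 0.924% of all genes were called. With the block 26.9% of all genes were called. Further pathway genes were then among them, such as the ligands WNT5A (adjusted p = 8.72e-05, edgeR), GAS6 (0.0422) and CSF1 (0.0658). SOCS2 had 632 to 760 normalized counts in SCC-9 control and 637 to 771 in HGF libraries. The call was lost when any of 12 libraries was left out, with adjusted p of 0.108 to 0.277, and held with the block (adjusted p = 0.000107).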

How the results depend on the processing

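The numbers of receptors called between untreated lines (7, 8 and 9) and in HGF-treated SCC-9 (0) stayed within 1.5 times under every alternative run, and so did the 4 of HGF-treated Detroit 562 but for the stricter rule of an adjusted p under 0.05 with at least 1 on the log2 scale, which left 2. The replicate block within each line gave 3 calls in HGF-treated FaDu in place of 0, 3 responses that differed between Detroit 562 and FaDu in place of 1, 3 between Detroit 562 and SCC-9 in place of 1, and 1 between FaDu and SCC-9 in place of 0. Between Detroit 562 and SCC-9 a block shared by the 3 lines and DESeq2 with and without its prior each gave 2. With 1 library left out the differing responses numbered 0 to 2 between Detroit 562 and FaDu and 1 to 2 between Detroit 562 and SCC-9. No share of all genes is given for the shared block, DESeq2 or the left-out libraries. Their counts are therefore not read as a result about the receptors. The block changed no call of a receptor in the untreated comparisons. Of the 30 places in the 3 orders by level per length, 6 changed with the longest transcript and 18 with the whole gene extent as the length. Over single genes 2290 alternative values kept their direction and call, 65 lost a call, 29 gained one and 22 changed sign, each of the last with 1 library left out. The ranges of these over left-out libraries were, for HGF against control, −1.01 to 3.43 for CSF1R and −0.11 to 0.50 for DDR2 in Detroit 562, −1.86 to 0.31 for CSF1R, −0.0063 to 0.22 for IGF1R and −0.089 to 0.052 for TYRO3 in FaDu, and −0.19 to 0.093 for AXL, −0.0017 to 0.28 for DDR2, −0.11 to 0.088 for INSR, −0.37 to 0.12 for MERTK, −0.029 to 0.20 for ROR1 and −0.053 to 0.10 for TYRO3 in SCC-9. For the difference in response they were −0.21 to 0.46 for AXL between Detroit 562 and FaDu and −0.044 to 0.68 for KIT between Detroit 562 and SCC-9. For untreated Detroit 562 against FaDu they were −0.047 to 0.55 for AXL and −2.23 to 0.78 for CSF1R, and for untreated FaDu against SCC-9 −0.11 to 0.45 for DDR2. The cause of these changes was not tested. Depth limits KIT in FaDu and SCC-9, CSF1R and DDR2, whose libraries hold as few as 0, 2 and 5 counts.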

Other observations

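Replicate 3 stood apart from replicates 1 and 2 for several receptors in control and HGF libraries alike. In Detroit 562 it had the highest AXL, ROR1, MERTK and DDR2 and the lowest DDR1 and TYRO3 of both groups. KIT, too, was lowest there, in control cells (1036 normalized counts) and in HGF-treated cells (325). In FaDu replicate 3 had the highest AXL, ROR1, DDR2 and CSF1R of both groups. In SCC-9 it had the highest INSR and ROR1 and the lowest AXL and MERTK of both groups, and AXL was highest in replicate 1 of both groups, at 14419.5 and 14462. The share of all genes with such a pattern is not given, so it is not read as particular to the receptors.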
